A study of Mus musculus with 3 samples.

Results

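The 10 cytokine genes Il6, Il11, Lif, Il33, Il18, Il1a, Il1b, Il1rn, Csf1 and Tnfsf15 were followed across the cell classes of mouse bladder and of bladder assembloids. They were chosen by name, as the mouse features that carry these symbols, and are 10 of the 31053 mouse features in the deposited matrices. Single-cell RNA-seq libraries had been made with the 10x Genomics 3′ v3 chemistry, which counts unique molecular identifiers (UMIs) of polyadenylated RNA near its 3′ end. The groups were bladder assembloids 7 days after reconstitution, bladder assembloids 1 day after reconstitution, and wild-type bladders of C57BL/6 mice aged 8 to 9 weeks. An assembloid is a cultured tissue rebuilt from separate cell types, and the strain and cell composition of these are not given in the labels. Each group had 1 library, from a pool of 3 assembloids, 3 assembloids and 8 bladders, so no difference between groups has a replicate check and no p-value is given.

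Il6, Il11 and Lif encode secreted proteins of one family, whose receptors share the signalling subunit gp130 (Il6st) and activate STAT3. Il33, Il18, Il1a and Il1b encode members of the interleukin-1 family, which signal through related receptors to NF-kB, and Il1rn encodes the antagonist that blocks the interleukin-1 receptor. Csf1 encodes the growth factor of macrophages, and Tnfsf15 a ligand of the tumour necrosis factor family. In bladder, such cytokines are known chiefly for their part in the response to infection and injury.

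The 7-day, 1-day and bladder matrices held 9548, 9039 and 8642 barcodes and 120301672, 135955678 and 93560608 UMIs. After filters, 8172, 8258 and 6775 mouse cells were kept, with medians of 9399, 14937.5 and 7543 UMIs. Few barcodes were kept in both libraries of a pair, namely 24 for 7-day and bladder, 22 for 7-day and 1-day, and 19 for 1-day and bladder. Cells were clustered with the 10 genes left out, and clusters were named from marker genes. This gave 2125, 1465 and 2691 urothelial, 4718, 5355 and 2508 stromal, 991, 447 and 1132 endothelial and 74, 84 and 40 myeloid cells. All 12 urothelial and 13 endothelial markers were at least 2-fold above the mean of the other classes in every library. So were 20, 20 and 22 of 22 stromal and 15, 15 and 16 of 16 myeloid markers. Clusters were named from these same markers, so these counts are no separate check. A single class could come closer than the mean. The highest stromal marker in bladder endothelium had 136% of its stromal level. In 1-day stroma, the highest endothelial marker had 66.7% of its endothelial level.

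The 1-day and bladder libraries filled different clusters of the same class. Of the stromal cells, 0 of 5355 from the 1-day library and 2506 of 2508 from the bladder lay in the 5 clusters of bladder fibroblasts, muscle and pericyte-marker cells. For urothelial cells the corresponding numbers were 3 of 1465 and 2688 of 2691, in 3 clusters. The 7-day library held both kinds. Of its cells, 4350 (53.2%) had at most 5% bladder cells among their 30 nearest bladder or 1-day neighbours and are called assembloid-side, with a median of 19924 UMIs. Another 3591 (43.9%) had 95% or more bladder neighbours and are called bladder-side, with a median of 3338 UMIs. Class values of the 7-day library mix both, so assembloid-side values are given beside them.

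A level below is the UMIs of a gene per 1000000 UMIs (CPM) summed over all cells of a class in a library. Intervals are 95% exact Poisson or binomial intervals, which cover counting error only. A gene was called higher or lower where it had at least 5 CPM in the higher library, differed by at least 2-fold and had an interval of the ratio that excluded 1. In stromal cells, the 7-day library against bladder gave 4 of the 10 genes higher and 2 lower, with 4 under 5 CPM in both. Of all 10657 genes past that level, 14.3% were higher and 21% lower. The 1-day library against bladder gave the same counts, 4 higher and 2 lower, against 15.7% and 23.7% of 10670 genes. The 7-day against the 1-day library gave 0 higher and 1 lower among 5 genes past 5 CPM, against 2.37% and 0.0835% of 9577 genes. Both comparisons with bladder use the same bladder library.

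In urothelial cells, 1 gene was higher and 0 were lower at 7 days against bladder, with 3 past 5 CPM and 2.35% of 8933 genes higher and 0.0336% lower. The 1-day library had 4 higher and 1 lower against bladder among 6 past 5 CPM, against 15.4% and 6.98% of 9591 genes. Of these 4, Il11 and Csf1 lay within the range of stromal marker genes in urothelial cells, as described with those genes. The 7-day against the 1-day library had 0 higher and 3 lower among 5, against 4.52% and 6.74% of 9505 genes. Endothelial cells had 0 higher and 2 lower among 3 at 7 days against bladder (11.5% and 10.4% of 10231 genes) and 0 and 2 among 3 at 1 day (21.1% and 23.1% of 10427). Their 7-day library had 1 higher and 0 lower than the 1-day one, among 2 (10.3% and 2.64% of 9973). Myeloid cells had 0 higher and 1 lower among 7 at 7 days against bladder (6.44% and 9.8% of 10460 genes), 0 and 2 among 7 at 1 day (7.07% and 11.1% of 10452), and 1 and 0 among 5 at 7 days against 1 day (2.36% and 1.35% of 9549). The median log2 ratio of the 6 stromal genes past 5 CPM was 1.95 at 7 days and 2.35 at 1 day, both against bladder, beside −0.02 and −0.05 over all genes. These medians cover genes that passed 5 CPM largely through the library where they were high.

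**Figure D1:**
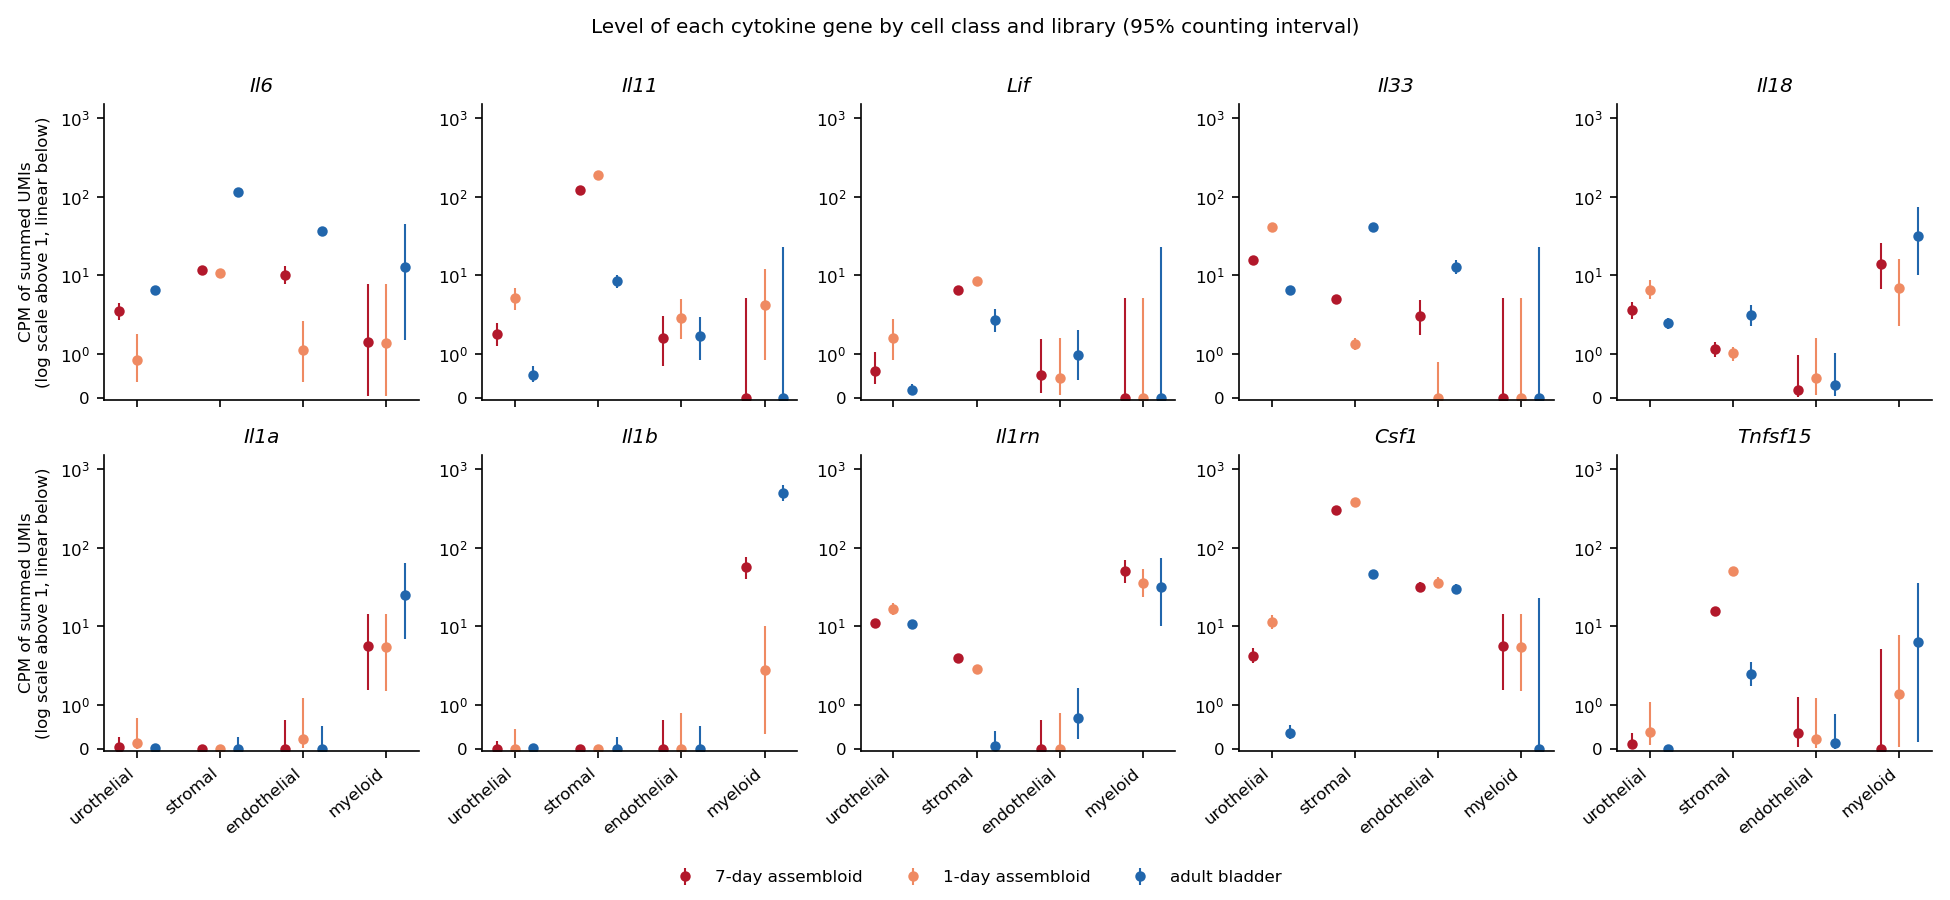
Level of each of the 10 genes in CPM of summed UMIs (log scale above 1, linear below) in urothelial, stromal, endothelial and myeloid cells of the 7-day, 1-day and bladder libraries; bars are 95% counting intervals. Il11, Csf1 and Tnfsf15 were highest in assembloid stroma, Il6 in bladder stroma at 113 CPM, and Il1b in bladder myeloid cells at 496 CPM.

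Upstream sequences are shown for the 5 genes besides Il33 that were called in stroma, since it was there that these genes parted between assembloids and bladder. Each runs 5′ to 3′ over the 250 bases before the start of transcription in RefSeq (GRCm38.p6), in lower case, with matches to the motifs named below in capitals.
Il6 (chr5:30012864-30013113, plus strand): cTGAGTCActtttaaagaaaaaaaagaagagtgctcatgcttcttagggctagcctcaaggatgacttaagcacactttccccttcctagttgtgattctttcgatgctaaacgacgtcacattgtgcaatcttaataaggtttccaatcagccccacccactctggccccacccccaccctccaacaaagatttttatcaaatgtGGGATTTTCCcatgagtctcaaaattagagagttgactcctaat
Il11, downstream start (chr7:4778142-4778391, minus strand): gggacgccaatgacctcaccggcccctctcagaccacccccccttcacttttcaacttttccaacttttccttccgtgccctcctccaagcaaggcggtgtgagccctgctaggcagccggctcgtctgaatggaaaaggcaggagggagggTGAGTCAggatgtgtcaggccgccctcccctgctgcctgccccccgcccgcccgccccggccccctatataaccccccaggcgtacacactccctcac
Lif (chr11:4257318-4257567, plus strand): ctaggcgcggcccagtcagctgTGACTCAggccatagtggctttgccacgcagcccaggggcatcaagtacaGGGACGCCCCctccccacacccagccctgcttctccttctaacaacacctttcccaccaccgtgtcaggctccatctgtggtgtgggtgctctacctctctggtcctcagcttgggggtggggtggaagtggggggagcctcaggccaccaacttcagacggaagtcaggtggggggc
Csf1 (chr3:107760470-107760719, minus strand): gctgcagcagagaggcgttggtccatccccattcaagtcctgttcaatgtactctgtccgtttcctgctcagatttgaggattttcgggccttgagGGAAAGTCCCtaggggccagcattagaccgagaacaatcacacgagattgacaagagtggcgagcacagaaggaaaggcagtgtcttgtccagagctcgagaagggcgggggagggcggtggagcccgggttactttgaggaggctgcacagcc
Tnfsf15 (chr4:63745060-63745309, minus strand): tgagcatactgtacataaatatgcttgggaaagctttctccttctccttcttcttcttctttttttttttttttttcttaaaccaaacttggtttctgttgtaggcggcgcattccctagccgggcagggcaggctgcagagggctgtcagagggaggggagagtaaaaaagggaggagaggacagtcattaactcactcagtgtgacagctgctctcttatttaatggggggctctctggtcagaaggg
Both strands were searched for an AP-1 motif (TGANTCA), a STAT motif (TTCNNNGAA), a TATA box (TATAAA) and the NF-kB consensus of 10 letters. Among all 32851 RefSeq promoters of this length, 6.75%, 7.02%, 12.4% and 7.25% held a match. The Il6 window held an AP-1 match 249 bases and an NF-kB match 44 bases upstream of the start. In Lif, an AP-1 match lay 228 bases and an NF-kB match 178 bases upstream, and Csf1 had an NF-kB match 154 bases upstream. The downstream start of Il11 had an AP-1 match 98 bases upstream, while its other start, 4782857, and Tnfsf15 had no match to any of the 4 motifs. A match describes letters in the window and says nothing of binding.

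Among the gp130 cytokines, Il6 (chr5:30013114-30019981) was lower in assembloid stroma and endothelium than in bladder, while Il11 (chr7:4772373-4782859) was higher there in stroma. In stromal cells Il6 had 11.5 CPM at 7 days (989 UMIs), 10.8 CPM at 1 day (1128 UMIs) and 113 CPM in bladder (1545 UMIs). The 7-day library was 9.83-fold lower than bladder, with a log2 ratio of −3.30 [−3.41 to −3.18], and the 1-day library 10.4-fold lower, with −3.38 [−3.50 to −3.27]. The assembloid libraries differed from each other by a log2 ratio of 0.09 [−0.04 to 0.21]. On the 7-day assembloid side Il6 had 9.08 CPM, and on the bladder side 69.6 CPM.

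Most bladder Il6 came from 1 stromal cluster, the one with the highest pericyte marker level, whose leading genes included Colec11, Rgs5 and Vtn. Its 438 bladder cells had 731 CPM [692 to 772] and held 1275 of the 1545 stromal Il6 UMIs (82.5%). The 263 cells of that cluster in the 7-day library had 422 CPM [365 to 486], and the 1-day library had no cell in it. Without the cluster, stromal Il6 was 9.32 CPM at 7 days, 10.8 CPM at 1 day and 22.6 CPM in bladder. The ratio to bladder then shrank to 2.43-fold lower at 7 days and 2.10-fold lower at 1 day. Other bladder stroma lay at 25.8 CPM in the Dpt and Pi16 fibroblasts, 15.2 CPM in the Car3 and Pi16 fibroblasts and 29.6 CPM in the Myh11 and Pln muscle cells. Among assembloid stromal clusters, Il6 was 15.02 and 19.8 CPM (7 days and 1 day) in the Aldh1a3 cluster and 19.2 and 19.0 CPM in the Mmp3 and Saa3 cluster. It was 1.53 and 1.56 CPM in the Crabp1 cluster.

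The share of stromal cells with an Il6 UMI depended on depth. Unthinned, it was 12.5%, 14.6% and 13.8% in the 7-day, 1-day and bladder libraries, at median depths of 17848.5, 19154 and 5170 UMIs per stromal cell. After each cell was thinned to 2500 UMIs it was 2.50%, 2.84% and 10.8%, with 960, 115 and 316 shallower cells left out. At 7 days these were 803 of the 1331 bladder-side and 80 of the 3277 assembloid-side stromal cells, the others lying between. Thinned stromal shares of the 7-day library, here and for the genes below, thus hold fewer bladder-side cells than unthinned ones. Glial cells, at medians of 1548, 6500 and 2834 UMIs, had unthinned shares of 0 of 196, which allows up to 1.53%, then 0.858% and 1.36%.

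Endothelial Il6 was 10.2 CPM at 7 days (58 UMIs), 1.11 CPM at 1 day (5 UMIs) and 36.9 CPM in bladder (262 UMIs). Relative to bladder it was 3.59-fold lower at 7 days and 30.2-fold lower at 1 day. The 7-day level exceeded the 1-day level 8.41-fold, but of the 58 UMIs 57 lay in bladder-side cells, at 31.3 CPM, and 1 in assembloid-side cells, at 0.280 CPM. Within bladder endothelium Il6 was highest in the cluster led by Selp and Ackr1, genes of venules, at 66.2 CPM [55.7 to 78.1]. The Cd36 and Fabp4 cluster had 49.7 CPM [40.3 to 60.7], which overlaps it, and the Cytl1 and Gkn3 cluster 9.41 CPM. The lymphatic cluster, led by Lyve1 and Prox1, had 7 UMIs.

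Urothelial Il6 was low throughout, at 3.50 CPM at 7 days (70 UMIs), 0.869 CPM at 1 day (7 UMIs) and 6.59 CPM in bladder (420 UMIs). It was lower at 1 day than in bladder, with a log2 ratio of −2.82 [−4.25 to −1.87], and the 7-day ratio to bladder, −0.90 [−1.30 to −0.54], was under 2-fold. Of the 70 UMIs at 7 days, 68 were in bladder-side cells and 1 in assembloid-side cells, whose level was 23.2-fold below bladder, at a log2 ratio of −4.53, and was called lower. In bladder the Areg and Ivl cluster had 8.99 CPM, the Krt5 and Trp63 cluster, which had both basal and umbrella markers (4005 and 5471 CPM over all libraries), 4.98 CPM and the Upk2 and Upk3a cluster 1.32 CPM. Myeloid cells had 1, 1 and 2 Il6 UMIs in the 7-day, 1-day and bladder libraries.

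**Figure D2:**
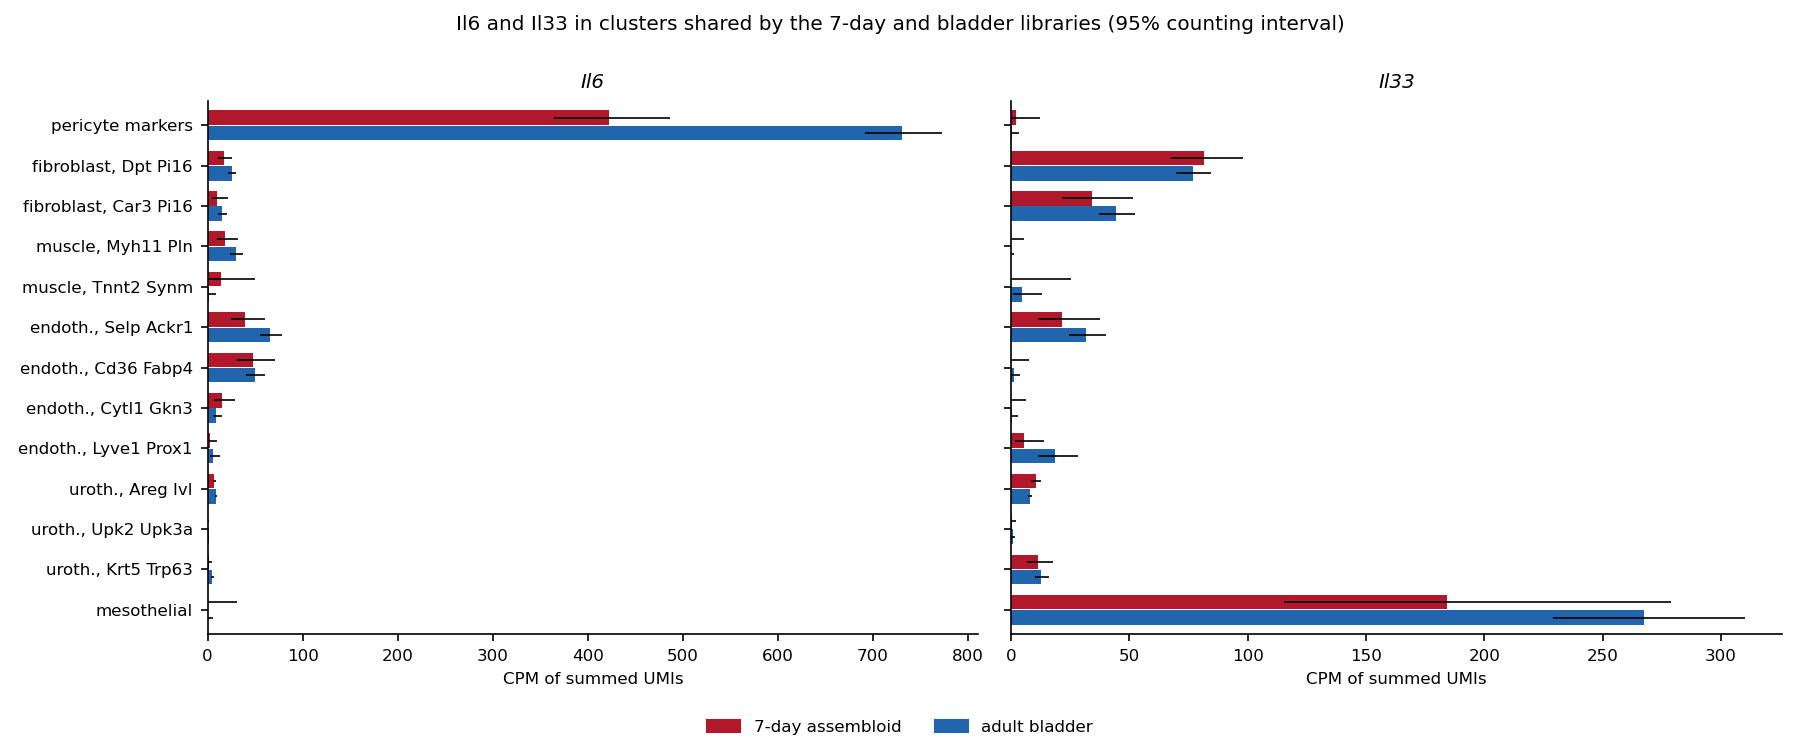
Il6 and Il33 in CPM of summed UMIs in the clusters filled by both the 7-day and the bladder library, each row labelled with leading genes; bars are 95% counting intervals. Bladder Il6 stood at 731 CPM in the pericyte-marker cluster, and Il33 was highest in mesothelial cells, at 184 CPM (7-day) and 267 CPM (bladder).

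Il11, known for its action on fibroblasts, was higher in assembloid stroma. Stromal cells had 121 CPM at 7 days (10432 UMIs), 187 CPM at 1 day (19496 UMIs) and 8.34 CPM in bladder (114 UMIs). The 7-day level was 14.5-fold above bladder, at a log2 ratio of 3.86 [3.60 to 4.14], and the 1-day level 22.3-fold above it, at 4.48 [4.22 to 4.77]. Between the assembloid libraries the 7-day level was 1.54-fold lower, which is under the 2-fold limit. Assembloid-side stromal cells of the 7-day library had 126 CPM and bladder-side ones 7.73 CPM. The assembloid-side level was 1.48-fold below the 1-day level. At 2500 UMIs per cell, 12.9%, 20.6% and 1.46% of stromal cells had an Il11 UMI, against 31.3%, 51.4% and 3.27% unthinned. In endothelial cells, at medians of 3701, 9230 and 4987.5 UMIs, the thinned shares were 0.634%, 0.696% and 0.404%.

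The stromal clusters of the assembloids differed in Il11. The Mmp3 and Saa3 cluster had 172 CPM at 7 days and 307 CPM at 1 day, and the Aldh1a3 cluster 165 and 299 CPM. Lower among the 6 large clusters were the Crabp1 cluster, at 74.2 and 78.5 CPM, and the Birc5 and Pclaf cluster, at 104 and 75.1 CPM. The Gzme and Spp1 cluster lay between, at 141 CPM [135 to 147] and 147 CPM [141 to 153], whose intervals overlap. Both clusters with the highest Il11 at 1 day were thus lower at 7 days, while the Birc5 and Pclaf cluster had the larger value at 7 days, a difference under 2-fold. Bladder Il11 was counted mainly in the Dpt and Pi16 fibroblasts, at 14.4 CPM (79 of 114 stromal UMIs). The bladder pericyte-marker cluster, where Il6 was highest, had 1 Il11 UMI.

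Lif (chr11:4257557-4272514), first known as a factor that keeps mouse embryonic stem cells undifferentiated, was higher in assembloid stroma at a low level. It had 6.56 CPM at 7 days (564 UMIs), 8.52 CPM at 1 day (888 UMIs) and 2.71 CPM in bladder (37 UMIs). The log2 ratio to bladder was 1.26 [0.80 to 1.80] at 7 days and 1.64 [1.18 to 2.17] at 1 day. In cells with at least 5000 UMIs the 7-day ratio was 0.98, under 2-fold. Its order among assembloid clusters followed that of Il11 at the top, with 15.5 CPM at 7 days and 19.0 CPM at 1 day in the Mmp3 and Saa3 cluster and 7.78 and 15.7 CPM in the Aldh1a3 cluster. The Crabp1 cluster had 1.71 and 1.88 CPM. In thinned stromal cells, 36.7% of the 49 cells with a Lif UMI at 7 days also had an Il11 UMI, against 12.6% of the other cells. At 1 day these were 38.5% of 109 cells and 20.2%. For Il11 in cells with a Tnfsf15 UMI the shares were 12.8% against 12.9% at 7 days and 26.4% against 20.2% at 1 day. For Csf1 in cells with an Il11 UMI they were 34.6% against 33.8% and 47.1% against 48.2%. None of these shares was split by cluster. Urothelial and endothelial cells had 13 or fewer Lif UMIs in each library, and myeloid cells had 0.

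**Figure D3:**
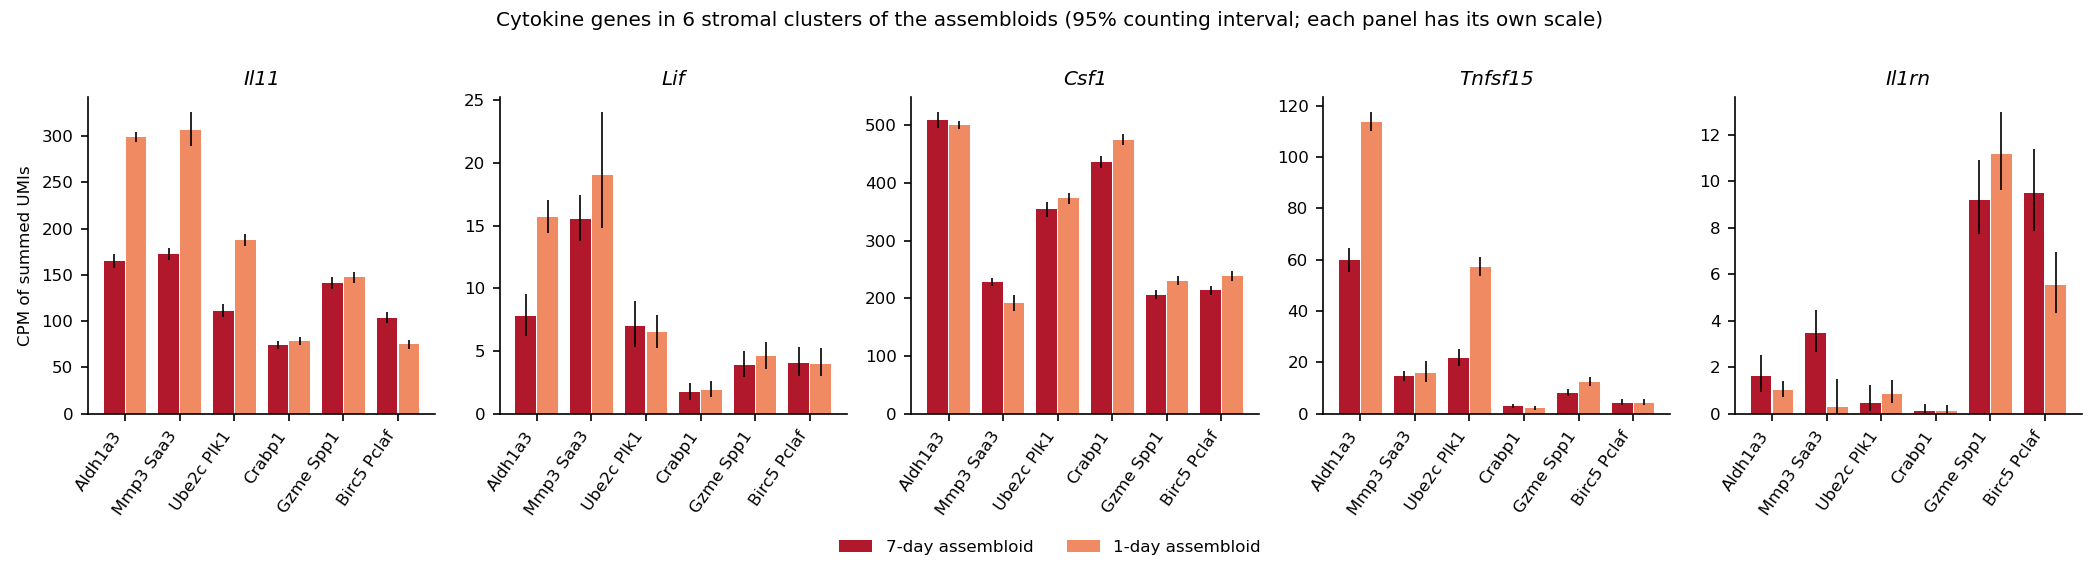
Levels of Il11, Lif, Csf1, Tnfsf15 and Il1rn in CPM of summed UMIs in 6 stromal clusters of the 7-day and 1-day libraries, named by leading genes, with 95% counting intervals and a separate scale for each panel. Il11 and Lif were highest in the Mmp3 and Saa3 and the Aldh1a3 clusters, Tnfsf15 in the Aldh1a3 cluster (59.8 and 114 CPM) and Il1rn in the Gzme and Spp1 and the Birc5 and Pclaf clusters.

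In the interleukin-1 family, Il33 (chr19:29925114-29960718) went in opposite directions in epithelium and stroma. It encodes a nuclear protein released from damaged barrier and stromal cells. Urothelial cells had 15.9 CPM at 7 days (317 UMIs), 40.9 CPM at 1 day (329 UMIs) and 6.53 CPM in bladder (416 UMIs). This was 2.43-fold above bladder at 7 days, at a log2 ratio of 1.28 [1.07 to 1.49], and 6.26-fold above it at 1 day, at 2.65 [2.43 to 2.86]. Assembloid-side urothelial cells of the 7-day library had 37.6 CPM [32.5 to 43.2] and bladder-side ones 7.97 CPM. The 7-day level as a whole was lower than the 1-day level by a log2 ratio of −1.37, but the assembloid-side level had a log2 ratio of −0.12 to it and was not called.

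Stromal Il33 was 4.95 CPM at 7 days (426 UMIs), 1.35 CPM at 1 day (141 UMIs) and 41.0 CPM in bladder (560 UMIs). The 7-day level was 8.27-fold below bladder and the 1-day level 30.2-fold below it. Between the assembloid libraries the 7-day level was 3.65-fold the 1-day level, at a log2 ratio of 1.87 [1.59 to 2.16], and 2.55-fold in assembloid-side cells, but with under 5 CPM in both libraries no call was made. In bladder stroma it was counted in the Dpt and Pi16 fibroblasts, at 76.8 CPM [69.7 to 84.5], and the Car3 and Pi16 fibroblasts, at 44.3 CPM [37.1 to 52.5], and the same clusters of the 7-day library had 81.7 and 34.2 CPM. Assembloid-side stroma had 3.46 CPM, and its highest level among the large assembloid clusters was 9.77 CPM at 7 days, in the Mmp3 and Saa3 cluster. Endothelial Il33 was 2.99 CPM at 7 days (17 UMIs), 0 at 1 day and 12.8 CPM in bladder (91 UMIs). That made it 4.18-fold lower than bladder at 7 days and at least 19.2-fold lower at 1 day, taking 3 UMIs as the limit that a count of 0 allows. Assembloid-side endothelium at 7 days had 1 UMI (0.280 CPM), with a log2 ratio to bladder of −4.94. Bladder endothelial Il33 was highest in the Selp and Ackr1 cluster, at 31.5 CPM, and in lymphatic cells, at 18.6 CPM.

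Within assembloid urothelium Il33 was higher in the Krt15 cluster, whose basal markers exceeded its umbrella markers. This cluster had 48.4 CPM at 7 days [40.9 to 56.9] and 49.8 CPM at 1 day [43.6 to 56.7]. Their cluster led by Ndufa4l2 and Ghrh had 19.9 and 27.6 CPM. In bladder the Krt5 and Trp63 cluster had 12.8 CPM, the Areg and Ivl cluster 7.79 CPM and the Upk2 and Upk3a cluster 0.958 CPM. Thinned to 2500 UMIs, 3.77%, 9.17% and 1.36% of urothelial cells had an Il33 UMI, against 8.61%, 14.9% and 4.76% unthinned at medians of 8329, 4836 and 21267 UMIs. Myeloid cells, at medians of 10348, 8121.5 and 3773.5 UMIs, had 0 Il33 UMIs in 74, 84 and 40 cells, which allows shares of up to 4.05%, 3.57% and 7.50%.

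Il18 (chr9:50554827-50581840), which like Il33 is an alarm cytokine of epithelia, stayed under 10 CPM in urothelium. It had 3.60 CPM at 7 days (72 UMIs), 6.58 CPM at 1 day (53 UMIs) and 2.45 CPM in bladder (156 UMIs). The 1-day level was 2.71-fold above bladder, at a log2 ratio of 1.44 [0.95 to 1.89], but without the Ndufa4l2 cluster, at 9.70 CPM (7 days) and 10.96 CPM (1 day), it was 1.55-fold above and under 5 CPM in both libraries. Assembloid-side urothelium at 7 days had 7.40 CPM, which was 3.05-fold above bladder. Myeloid cells had 14.03 CPM at 7 days (10 UMIs), 6.92 CPM at 1 day (5 UMIs) and 31.4 CPM in bladder (5 UMIs). The 1-day myeloid level was lower than bladder by a log2 ratio of −2.18 [−4.30 to −0.06], from 5 UMIs in each, and was not called when all immune cells were counted as myeloid, at −1.43. Stromal Il18 stayed under 5 CPM in all 3 libraries.

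Il1a and Il1b, which encode interleukin-1 itself, had few or no UMIs in urothelial, stromal and endothelial cells. Il1a (chr2:129299610-129309972) had 5, 9 and 5 UMIs in all kept cells of the 7-day, 1-day and bladder libraries, of which 4 in each were in myeloid cells. Il1b (chr2:129364570-129371139) had 40 myeloid UMIs at 7 days (56.1 CPM), 2 at 1 day (2.77 CPM) and 79 in bladder (496 CPM). It was lower than bladder by a log2 ratio of −3.14 [−3.73 to −2.58] at 7 days and −7.17 [−10.56 to −5.58] at 1 day. In bladder 77 of the 79 UMIs were in the 24 cells of the S100a8 and S100a9 cluster, genes of neutrophils and inflammatory monocytes, and the 1-day library had no cell there. The 7-day level exceeded the 1-day level, by a log2 ratio of 4.04, with 5 of the 40 UMIs in assembloid-side cells (7.73 CPM), 23 in bladder-side cells and the others between. Assembloid-side cells alone had a log2 ratio of 1.30 to the 1-day library, which was not called. Shares of myeloid cells with an Il1b UMI were 18.9%, 2.38% and 40%, against 0 of 4718, 5355 and 2508 stromal cells, and thinned to 2500 UMIs they were 3.85%, 1.28% and 33.3%. Thinning left out 22, 6 and 10 shallower myeloid cells, among them 11 of the 13 bladder-side cells at 7 days. Unnamed cells held a further 33.3%, 0% and 24.5% of all Il1b UMIs of the 3 libraries.

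Il1rn (chr2:24336853-24351494), the antagonist, was carried by urothelium and myeloid cells in all 3 libraries and by few stromal cells in the assembloids. Urothelial cells had 10.9 CPM at 7 days (218 UMIs), 16.8 CPM at 1 day (135 UMIs) and 10.7 CPM in bladder (685 UMIs). Neither ratio to bladder reached 2-fold, with log2 ratios of 0.02 [−0.21 to 0.24] at 7 days and 0.65 [0.36 to 0.91] at 1 day. The 7-day level is a mixture, with 16.7 CPM [13.4 to 20.6] in assembloid-side cells and 8.59 CPM [7.15 to 10.2] in bladder-side cells. The Ndufa4l2 cluster of the assembloids was higher than the Krt15 cluster, at 30.9 against 6.96 CPM at 7 days and 31.9 against 5.66 CPM at 1 day. In bladder the order ran from 13.3 CPM in the Areg and Ivl cluster to 7.48 CPM in the Upk2 and Upk3a cluster and 2.57 CPM in the Krt5 and Trp63 cluster, with intervals that did not overlap.

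Stromal Il1rn was 3.92 CPM at 7 days (337 UMIs), 2.91 CPM at 1 day (303 UMIs) and 0.0732 CPM in bladder (1 UMI). All lay under the 5 CPM limit, so no call was made, and the log2 ratio to bladder was 5.16 [3.25 to 11.05] at 7 days and 4.73 [2.82 to 10.62] at 1 day. Most of these UMIs were in the Gzme and Spp1 cluster, at 9.21 CPM (135 UMIs, 7 days) and 11.2 CPM (178 UMIs, 1 day), and in the Birc5 and Pclaf cluster, at 9.49 CPM (115 UMIs) and 5.52 CPM (72 UMIs). The Mmp3 and Saa3 cluster held another 62 UMIs at 7 days (3.48 CPM), the Aldh1a3 cluster 18 and 36, and the Crabp1 cluster 2 in each library. Myeloid cells had 50.5 CPM at 7 days (36 UMIs), 35.98 CPM at 1 day (26 UMIs) and 31.4 CPM in bladder (5 UMIs), with overlapping intervals.

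Csf1 (chr3:107741048-107760469) was higher in the stroma of both assembloid libraries. Stromal cells had 301 CPM at 7 days (25860 UMIs), 384 CPM at 1 day (39995 UMIs) and 46.0 CPM in bladder (629 UMIs). The 7-day level was 6.53-fold above bladder, at a log2 ratio of 2.71 [2.59 to 2.82], and the 1-day level 8.33-fold above it, at 3.06 [2.95 to 3.18]. At 7 days, assembloid-side stroma had 312 CPM and bladder-side stroma 45.8 CPM, where the bladder library had an interval of 42.5 to 49.8 CPM. Thinned shares of stromal cells with a Csf1 UMI were 33.9%, 48.0% and 10.1%, against 1.03%, 2.93% and 0.151% of urothelial cells, and unthinned ones were 59.1%, 84.7% and 19.6%. The Aldh1a3 and Crabp1 clusters were highest, at 509 and 436 CPM at 7 days and 501 and 475 CPM at 1 day. The Mmp3 and Saa3 cluster, among the highest for Il11, had 228 and 192 CPM. In bladder the Car3 and Pi16 fibroblasts had 69.8 CPM, the Dpt and Pi16 fibroblasts 58.3 CPM and the pericyte-marker cluster 22.9 CPM.

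Endothelial Csf1 was not called in any comparison, at 31.3 CPM at 7 days (178 UMIs), 35.8 CPM at 1 day (161 UMIs) and 30.1 CPM in bladder (214 UMIs). The log2 ratio to bladder was 0.06 [−0.24 to 0.35] at 7 days and 0.25 [−0.05 to 0.55] at 1 day. In the same cells, stromal marker genes had a median of 9.00% (1.71% to 19.0%), 5.73% (1.81% to 68.0%) and 2.14% (0.344% to 136%) of their stromal level, and Csf1 10.4%, 9.34% and 65.5%. The part of free stromal RNA in the assembloid endothelial level was not tested. Myeloid cells, which carry the receptor, had 4, 4 and 0 Csf1 UMIs.

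Tnfsf15 (chr4:63727084-63745113) was the gene of the 10 called between the assembloid libraries in stroma. It had 15.7 CPM at 7 days (1350 UMIs), 50.7 CPM at 1 day (5285 UMIs) and 2.49 CPM in bladder (34 UMIs). The 7-day level was 6.22-fold above bladder and 3.23-fold below the 1-day level, at log2 ratios of 2.64 [2.17 to 3.19] and −1.69 [−1.78 to −1.61]. The 1-day level was 20.1-fold above bladder, at 4.33 [3.86 to 4.88]. Assembloid-side stroma at 7 days had 16.2 CPM, which kept the difference from 1 day at 3.14-fold. The Aldh1a3 cluster was highest, with 59.8 CPM at 7 days [55.3 to 64.5] and 114 CPM at 1 day [110.3 to 117]. It held 669 of the 1350 stromal UMIs at 7 days and 4036 of 5285 at 1 day. It made up 459 of 4718 stromal cells at 7 days, of which 1418 lay in bladder-type clusters, and 1819 of 5355 at 1 day. The Ube2c and Plk1 cluster had 21.8 and 57.3 CPM. Intervals of the 7-day and 1-day levels were apart in these clusters and in the Gzme and Spp1 cluster, at 8.18 and 12.4 CPM. They overlapped in the others, with 14.6 and 16.03 CPM in the Mmp3 and Saa3 cluster, 4.37 CPM at both times in the Birc5 and Pclaf cluster and 2.93 and 2.20 CPM in the Crabp1 cluster.

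**Figure D4:**
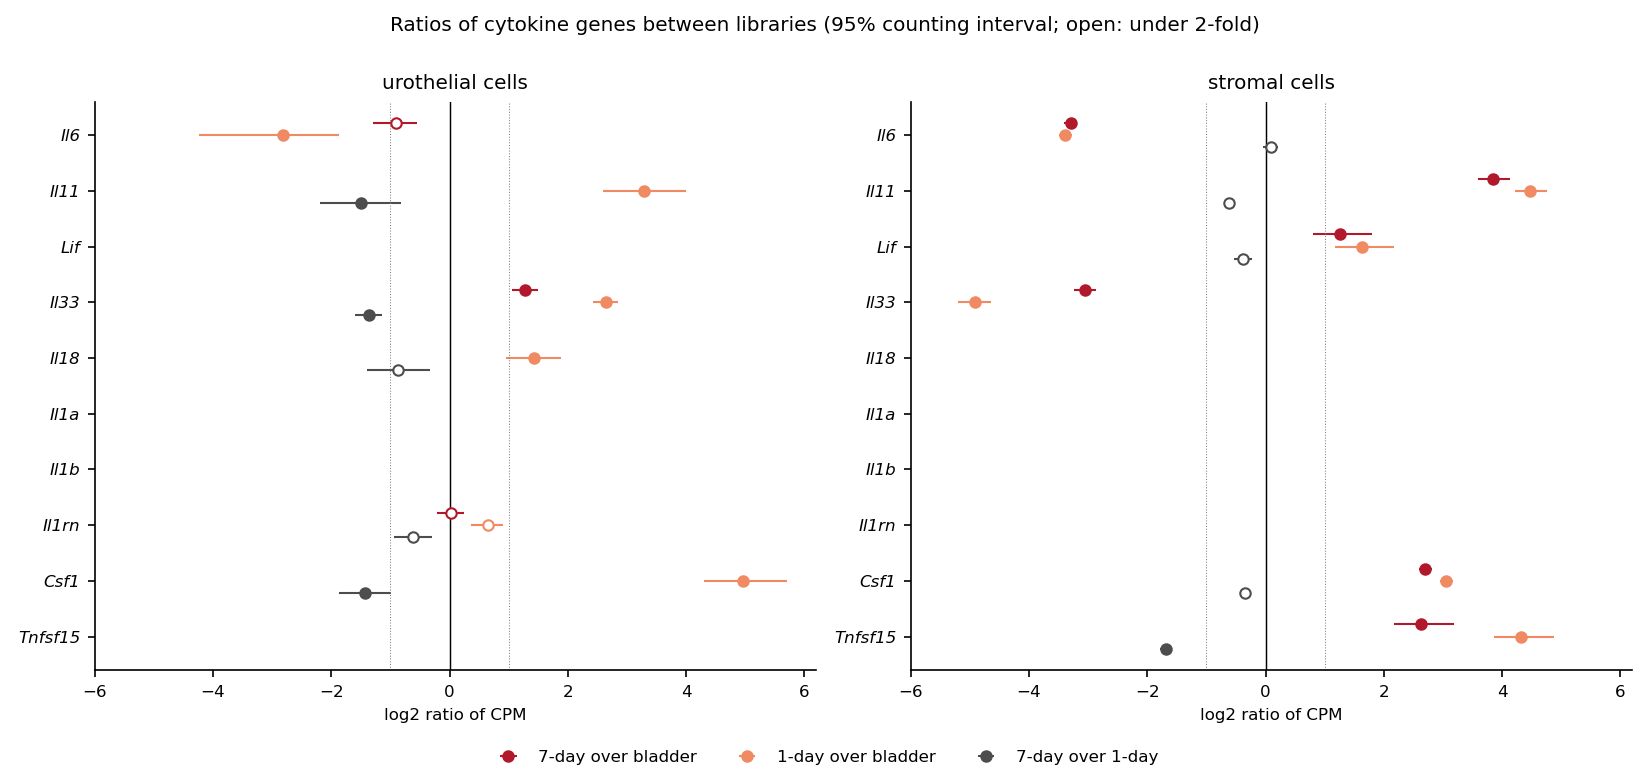
Log2 ratios of CPM for the genes past 5 CPM in either library compared, in urothelial and stromal cells, for 7-day over bladder, 1-day over bladder and 7-day over 1-day; bars are 95% counting intervals, filled points passed the 2-fold call and dotted lines mark 2-fold. Il33 lay right of 0 in urothelium and left of it in stroma in both comparisons with bladder, and Tnfsf15 was the stromal gene called between the assembloid libraries.

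Some urothelial values lay at the level that stromal marker genes had in urothelial cells. In urothelial cells the stromal marker genes had a median of 1.59% (1.20% to 3.26%, 20 markers) of their stromal level at 7 days, 3.31% (2.11% to 4.53%, 17 markers) at 1 day and 0.144% (0.0738% to 17.4%, 22 markers) in bladder. Only markers that reached a minimum CPM in the stromal cells of that library were counted. Urothelial Il11 was 1.80 CPM at 7 days, 5.09 CPM at 1 day and 0.518 CPM in bladder, and was called 9.81-fold higher at 1 day than in bladder. Urothelial Csf1 was 4.25, 11.4 and 0.361 CPM in the same order, and was called 31.2-fold higher at 1 day. As percentages of the stromal level these were 1.48%, 2.72% and 6.21% for Il11 and 1.41%, 2.98% and 0.784% for Csf1, which in both assembloid libraries lay inside the range of the stromal markers. The part of stromal RNA in these calls was not tested. Both genes were also called lower at 7 days than at 1 day, by log2 ratios of −1.50 for Il11 and −1.43 for Csf1, and in assembloid-side cells by −1.68 for Il11, while Csf1 was not called there, at −0.81. Lif lay outside that range, at 9.15% and 19.0%, from 12 and 13 urothelial UMIs. Il6 was at 30.4% at 7 days, where urothelial UMIs lay mostly in bladder-side cells and assembloid-side cells had 0.190 CPM in urothelium and 9.08 CPM in stroma. At 1 day it was at 8.03%, from 7 UMIs. Stromal Il1rn was 35.9% of the urothelial level at 7 days and 17.3% at 1 day, where urothelial markers in stroma reached at most 0.991% and 0.984%.

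**Figure D5:**
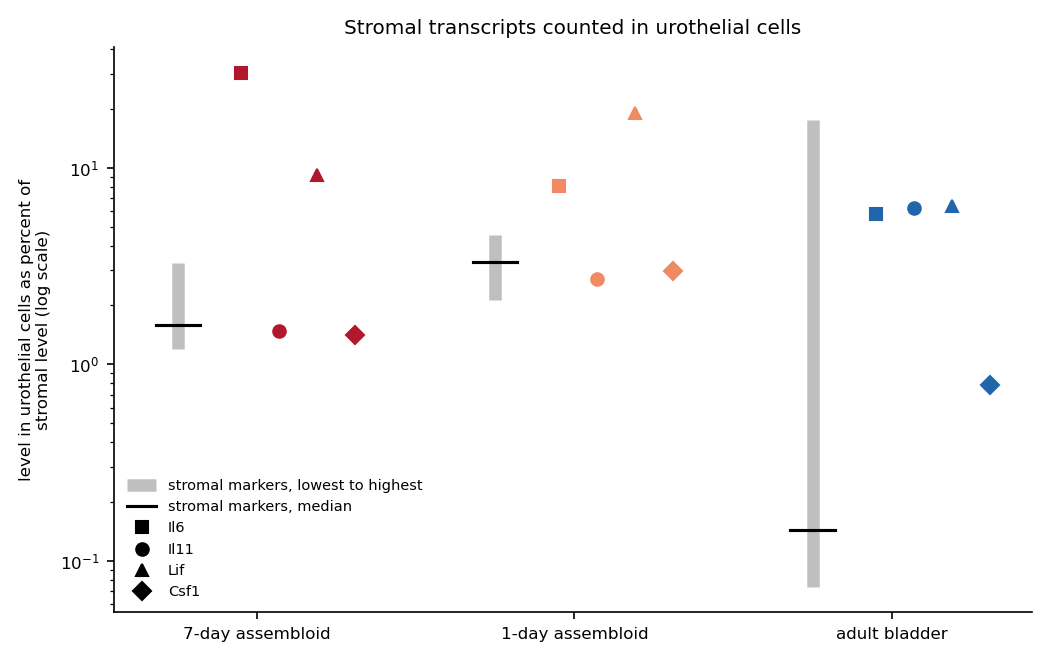
Level in urothelial cells as percent of the level in stromal cells (log scale) for the stromal marker genes (grey bar from lowest to highest, black line at the median) and for Il6, Il11, Lif and Csf1 in the 7-day, 1-day and bladder libraries. Il11 and Csf1 lay inside the marker range in both assembloid libraries, at 1.48% and 1.41% (7-day) and 2.72% and 2.98% (1-day).

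Receptors of these cytokines were followed as a list of 14 receptors and decoys. Values of this list and the lists below were not split by side, so 7-day values mix assembloid-side and bladder-side cells. In stroma 8 passed 5 CPM at 7 days against bladder, with 1 higher and 3 lower, where all genes gave 14.3% and 21%. At 1 day 9 passed, with 2 higher and 5 lower, where all genes gave 15.7% and 23.7%. Il1rl1, the receptor of Il33, had 13.2 CPM at 7 days (1133 UMIs), 12.1 CPM at 1 day (1266 UMIs) and 0.0732 CPM in bladder (1 UMI) in stromal cells. Il6ra, the specific receptor of Il6, had 3.57, 2.10 and 24.9 CPM there, and Il11ra1, that of Il11, 53.3, 43.8 and 140 CPM. So the receptor of Il33 and Il33 itself moved in opposite directions in stroma, as did Il11 and Il11ra1, which was 2.63-fold lower than bladder at 7 days and 3.20-fold lower at 1 day. In endothelium 8 of the 14 passed 5 CPM, with 0 higher and 3 lower at 7 days (11.5% and 10.4% of all genes) and 1 higher and 6 lower at 1 day (21.1% and 23.1%), among them Lifr, the receptor of Lif, with 68.0, 6.90 and 195 CPM. Bladder-side cells held 1822272 of the 5679109 endothelial UMIs at 7 days, so the 7-day Lifr level is a mixture. Csf1r, the receptor of Csf1, had 536 CPM (382 UMIs), 555 CPM (401 UMIs) and 892 CPM (142 UMIs) in myeloid cells.

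Of 16 other cytokines of these families, 5 passed 5 CPM in stroma, with 0 higher and 2 lower than bladder at 7 days and likewise at 1 day, beside 21% and 23.7% of all genes lower. Il34, the other ligand of Csf1r, was 17.5-fold lower at 7 days and 49.1-fold lower at 1 day, with 1.90, 0.672 and 33.1 CPM, so that the ligands of this receptor, Csf1 and Il34, moved in opposite directions. Clcf1, a further gp130 ligand, had 28.4, 4.84 and 37.6 CPM in urothelium. Bladder-side cells held 14554748 of the 19999270 urothelial UMIs at 7 days, and Clcf1 was not split by side. Of 6 genes for processing of the interleukin-1 family, 3 passed 5 CPM in stroma, with 0 higher and 2 lower in both comparisons with bladder, beside the same shares of all genes. Pycard, the inflammasome adaptor, had 166, 145 and 168 CPM in urothelium and 10.3, 7.77 and 29.6 CPM in stroma. Of the same list in urothelium, Casp1 had 1, 1 and 0 UMIs, Nlrp3 0, 0 and 1, and Nlrp6 0 in each library. Casp4 had 6.70, 8.45 and 3.98 CPM there, and Gsdmd 7.10, 7.20 and 6.84 CPM.

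Of 14 genes known to respond to NF-kB or STAT3, all 14 passed 5 CPM in stroma. At 7 days against bladder 0 were higher and 8 lower, beside 14.3% and 21% of all genes, and at 1 day 0 were higher and 11 lower, beside 15.7% and 23.7%. Socs3, the feedback inhibitor of gp130 signalling, had 44.1 CPM at 7 days, 11.8 CPM at 1 day and 436 CPM in bladder. Nfkbia, the inhibitor of NF-kB, had 67.4, 26.4 and 400.2 CPM, and Cebpd, a transcription factor induced by these cytokines, 200.3, 102 and 850.2 CPM. In the same comparisons Il6 and Il33 were lower and Il11, Lif, Csf1 and Tnfsf15 higher. Endothelial cells had 0 higher and 5 lower at 7 days, beside 11.5% and 10.4% of all genes, and 0 and 10 at 1 day, beside 21.1% and 23.1%. Myeloid cells had 0 higher and 11 lower at 7 days, beside 6.44% and 9.8%, and 0 and 12 at 1 day, beside 7.07% and 11.1%. The bladder had 40 myeloid cells, in which 1 UMI is 6.28 CPM. Of these, 24 lay in the S100a8 and S100a9 cluster, which held no 1-day cell. Urothelial cells had 0 of either at 7 days, beside 2.35% and 0.0336%, and 3 higher and 1 lower at 1 day, beside 15.4% and 6.98%.

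As a description, genes were ranked by Pearson correlation with each of the 10 over 12 points, the 4 classes in 3 libraries, on log2(CPM + 5), among genes that reached 20 CPM. The points share libraries and depths. Nearest to Il11 were Prkg2 (r = 0.995), P4ha3 (0.991) and Hoxc9 (0.989), and nearest to Csf1 were F2r (0.986), Loxl2 (0.977) and Map6 (0.973). Il6 lay nearest to Arih1 (0.952), Ppp1r12a (0.939) and Kazald1 (0.939), Il33 to Nrtn (0.957), Ssbp2 (0.945) and Ngly1 (0.924), and Tnfsf15 to Loxl3 (0.919), Slc1a6 (0.909) and Ncam1 (0.899). Nearest to Il1rn were Plagl2 (0.961), Taf6l (0.957) and Ntpcr (0.9504), and to Il1b Sirpb1a, Ms4a4c and Slamf7 (0.998, 0.996 and 0.996). Il18 lay nearest to Npc1 (0.949), Pitpnm1 (0.945) and Slc15a4 (0.945). Several of these rest on few UMIs in bladder myeloid cells, where 1 UMI is 6.28 CPM. The highest level of Sirpb1a was 25.1 CPM and that of Plagl2 and Pitpnm1 31.4 CPM, and Il18 itself had 5 UMIs there. Lif did not reach 20 CPM in any of the 12 points, so no genes are named for it.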

How the data were processed

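The authors deposited a matrix for each library with whole-number UMI counts for every gene in every barcode, not normalized. Cell Ranger is named in the submitters' processing notes, as are GRCh38, mm10 and hg38 as builds. Its version, 3.1.0, is given per the file headers, while settings for cell calling were not given in the sources used here. Feature IDs carry a species prefix, so human and mouse genes were counted together. The 10 genes, the gene lists and the marker lists were chosen with earlier results of these data known.

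Barcodes with at least 90% mouse UMIs, at least 500 genes and under 20% mitochondrial UMIs were kept, and 202, 280 and 238 doublets called by Scrublet in the 7-day, 1-day and bladder libraries were left out. Cells were clustered with scanpy 1.11.5 and leidenalg 0.10.2 (resolution 1, 15 neighbours, 30 components of 2000 genes, without the 10 genes). A cluster was named where at least 3 markers were 2-fold above other classes and seen in at least 25% of its cells, and where markers of no other class outnumbered its own among its 10 leading genes. Immune cells were clustered again by themselves. Unnamed cells numbered 43, 208 and 58.

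The genes named are the 10 in every class, the members of 4 lists with at least 5 CPM and among the 4 largest ratios of their list in a class and comparison, and the 3 genes nearest to each of the 10 that reached 20 CPM. Those for Il1a are not reported here. Values of Il11ra1 at 1 day, of Csf1r in myeloid cells and of the processing genes besides Pycard in urothelium were added after they were seen. Ratios were formed with 0.5 added to each UMI count, with exact conditional binomial intervals. The procedure was tried on simulated Poisson counts without variation between libraries or cells, so that trial bears on counting error only. Python 3.11.15, scipy 1.17.1, numpy 2.4.6, pandas 2.3.3 and matplotlib 3.10.9 were used. The alternatives tried were other filters, limits, scalings, cell classes and subsets of cells. Gene positions are from GENCODE vM21 on mm10, and promoter sequences from RefSeq on GRCm38.p6, which held all 10 genes.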

Additional observations from a re-analysis of the deposited data

Results flagged for a closer look

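Il33 was called in opposite directions in different classes under the same comparison. Against bladder, its urothelial minus stromal log2 ratio was 4.33 at 7 days and 7.56 at 1 day, and its urothelial minus endothelial log2 ratio was 3.34 at 7 days and 9.50 at 1 day, the last against an endothelial count of 0. For Il18 at 1 day against bladder, the urothelial minus myeloid log2 ratio was 3.62, from 5 myeloid UMIs in each library. With 1 library per group, these differences were not tested.

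Human barcodes, left out above, also held transcripts of these genes. In the 7-day library 78 barcodes with at least 500 human UMIs held 36 UMIs of human IL18 and 7 of human IL11. In the 1-day library 115 such barcodes held 47 UMIs of human IL18 and 6 of human CSF1. The bladder library had 0 such barcodes. Each of these counts is above the 3 UMIs that a count of 0 allows, and the labels do not give the source of the human cells.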

How the results depend on the processing

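Of the 31 calls among 120 gene, class and comparison combinations, all were kept when doublets were kept, with at least 99% mouse UMIs, with scaling by the median of ratios, with a 1.5-fold limit, without shared barcodes and, as an alternative chosen after seeing the data, without the pericyte-marker cluster. Scaling by the median of ratios moved the median of urothelial genes by 0.23 (1 day against bladder) and −0.20 (7 days against 1 day) on the log2 scale. Among 40 gene and class pairs, genes higher at 7 days than in bladder numbered 5 and were 2 at a minimum of 20 CPM, and genes lower there numbered 5 and were 2 by the mean of per-cell CPM. Genes higher at 1 day than in bladder numbered 8 and were 4 at 20 CPM. Genes higher at 7 days than at 1 day numbered 2 and were 6 by the mean of per-cell CPM, 1 at 20 CPM, 0 in assembloid-side cells and 0 in cells with at least 5000 UMIs. Genes lower there numbered 4 and were 2 at 20 CPM, 7 with a 1.5-fold limit and 2 in assembloid-side cells. Endothelial Il6, 3.07 higher (log2) at 7 days than at 1 day, reversed to −1.55 in assembloid-side cells, where both levels were under 5 CPM. By the mean of per-cell CPM, Il6 and Il33 in endothelium and Il1b in myeloid cells at 7 days against bladder lost their calls, at −0.87, −0.88 and −0.83. In all these cases the cause was not tested. No paired analysis was possible because each group had 1 library. Values under 5 CPM in the 40 to 84 myeloid cells rest on few UMIs.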

Other observations

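Outside the 4 classes, glial and mesothelial cells carried some of these genes. Lif had 25.8 CPM at 7 days (25 UMIs) and 28.9 CPM at 1 day (139 UMIs) in glial cells, and 0 UMIs in 295 bladder glial cells. The cluster led by Ngfr and Fgf5 held 63 of 196, 699 of 699 and 6 of 295 of these cells in the 7-day, 1-day and bladder libraries. Mesothelial cells, which line the outside of the bladder, numbered 25, 0 and 51. In them Il33 had 184 and 267 CPM, Il18 had 134 and 130 CPM, and Csf1 had 109 and 113 CPM, at 7 days and in bladder. Il18 there rested on 16 and 84 UMIs.

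An unnamed cluster of 18, 207 and 1 cells in the 7-day, 1-day and bladder libraries, led by Lrrn4, Wt1 and Msln against all other clusters and by Cck, Des and Timp1 against other classes, had 412 CPM of Csf1 at 1 day, from 2057 UMIs.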
